A study of Homo sapiens with 8 samples.

Results

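The genes described here encode the machinery that licenses replication origins, opens them and drives the replication fork. A list of 53 human genes was matched by symbol to the annotation of the array, and 26 of them had a named probe set, out of 14884 genes named in all; these 26 are called the measured replication genes. Of 12 role classes, 7 were represented. Every measured gene belonged to licensing, to the MCM family, to CDC45 and GINS, to the sliding clamp, to lagging strand processing or to fork protection. The origin recognition complex (ORC1 to ORC6), geminin (GMNN), the clamp loader (RFC1 to RFC5), polymerases alpha, delta and epsilon with primase, replication protein A and LIG1 had no probe set named here and were not analysed.

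The cells were MOLM-14, an established human acute myeloid leukaemia line. In 4 arrays, called shCD39, the cells expressed a short hairpin RNA against ENTPD1, which encodes the ectonucleotidase CD39; in the other 4, called shCTRL, they expressed a scrambled hairpin. All cells of both groups had received doxycycline for 72 h, and the labels describe the sources as clones and the 4 arrays of each group as technical replicates, so that p-values measure the spread between these arrays and not between independent cultures. All values are log2 expression from robust multi-array average (RMA) normalisation, which sets all arrays to a shared distribution; a difference is therefore relative to the bulk of probe sets.

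Before a cell enters S phase, the origin recognition complex, CDC6 and CDT1 load the MCM2-7 hexamer onto DNA as an inactive double ring. In S phase, CDC45 and the GINS complex join MCM2-7 to form the active helicase, and polymerases follow it, held on DNA by the ring-shaped clamp PCNA. Many of these genes are transcribed together at the G1/S transition under the control of E2F transcription factors, and their RNA is abundant in cycling cells, such as leukaemia lines, and scarce in resting or differentiated ones. In a bulk sample, fewer cells in S phase and less RNA per cell cannot be told apart.

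The targeted gene was checked first. ENTPD1 read 2.42, 2.14, 2.72 and 2.95 in shCD39 arrays 1 to 4, against 3.16, 2.88, 3.21 and 4.12 in shCTRL arrays 1 to 4. The groups overlapped, with shCD39 array 4 above shCTRL array 2, and the difference of -0.79 (standard error, SE, 0.25) did not pass the threshold (limma, Benjamini-Hochberg adjusted p = 0.178). Myeloid identity was checked on CTSG, a granule protease, which read 11.33 ± 0.10 in shCD39 and 11.29 ± 0.27 in shCTRL, and on the receptor FLT3, which read 9.38 ± 0.32 in shCD39 and 9.66 ± 0.07 in shCTRL (mean ± SD, n = 4 arrays each). Array medians were 3.13 to 3.17, close to the ENTPD1 values, so ENTPD1 was dim in both groups. The ENTPD1 difference is therefore a limited measure of the knockdown. CD14, a marker of mature monocytes, read 2.47 ± 0.25 in shCD39 and 2.38 ± 0.13 in shCTRL. Of 7 measured myeloid markers, 5 had higher means in shCD39, with CSF1R at a log2 fold change of 1.36 and LYZ at 1.07 and 0 past the threshold. In CSF1R and LYZ all shCD39 values lay above all shCTRL values. The share of all genes with groups apart in that direction was not counted. Without shCD39 array 4, limma called both higher (adjusted p = 0.00774 for CSF1R and 0.00475 for LYZ), where 0.746% of all genes were called higher. That array was the lowest of its group in both genes (5.11 in CSF1R and 9.25 in LYZ). Leaving it out therefore raises their shCD39 means, and these 2 calls are not separate support. The mean level of the 7 myeloid markers was 7.47 to 7.85 in shCD39 arrays and 7.20 to 7.51 in shCTRL arrays. Markers of T and NK cells (4 genes) had mean levels of 4.03 to 4.45 in shCD39 arrays and 4.03 to 4.18 in shCTRL arrays, and erythroid markers (2 genes) 2.99 to 3.34 in shCD39 and 2.82 to 3.1 in shCTRL. Those of fibroblasts and epithelium (4 genes) had 4.67 to 4.83 in shCD39 and 4.47 to 4.65 in shCTRL, and the B cell gene PAX5 6.46 to 6.62 in shCD39 and 6.68 to 7.0 in shCTRL. Their part in the results on replication genes was not tested.

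Array 4 of the shCD39 group stood apart from the other arrays of that group in the replication genes, and the counts of calls below are given with and without it. Over the 26 genes, the median deviation from the shCTRL mean was -0.61, -0.82 and -0.99 in shCD39 arrays 1, 2 and 3 and -0.14 in shCD39 array 4, against -0.04, 0.08, -0.25 and 0.17 in shCTRL arrays 1 to 4. The value of shCD39 array 4 thus lay inside the range of the shCTRL arrays, above shCTRL array 3. The files do not settle whether the label of that array is right, which bears on every shCD39 mean and on the number of calls. Its ENTPD1 value of 2.95 was the highest of the shCD39 arrays. In RRM2B, a gene of deoxynucleotide supply described below, it read 6.70, against 5.78 to 6.01 in the shCTRL arrays. In CSF1R it read 5.11, against 4.24 to 4.82 in shCTRL, and in LYZ 9.25, against 8.72 to 9.13. These genes were picked with their values known, and the label was not tested. Of the 26 replication genes, 19 had shCD39 array 4 between the lowest and highest shCTRL values. In 6 that array was below them and in 1, TOPBP1, above, and it was the highest of the shCD39 arrays in 24. Of all 14884 genes, 53.9% had shCD39 array 4 inside the shCTRL range. The lowest of the 8 arrays was shCD39 array 3 in 14 genes, shCD39 array 2 in 9 and shCD39 array 1 in 2. FEN1 was lowest in shCTRL array 3. The highest array was shCTRL array 4 in 15 genes and shCD39 array 4 in 1.

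**Figure D1:**
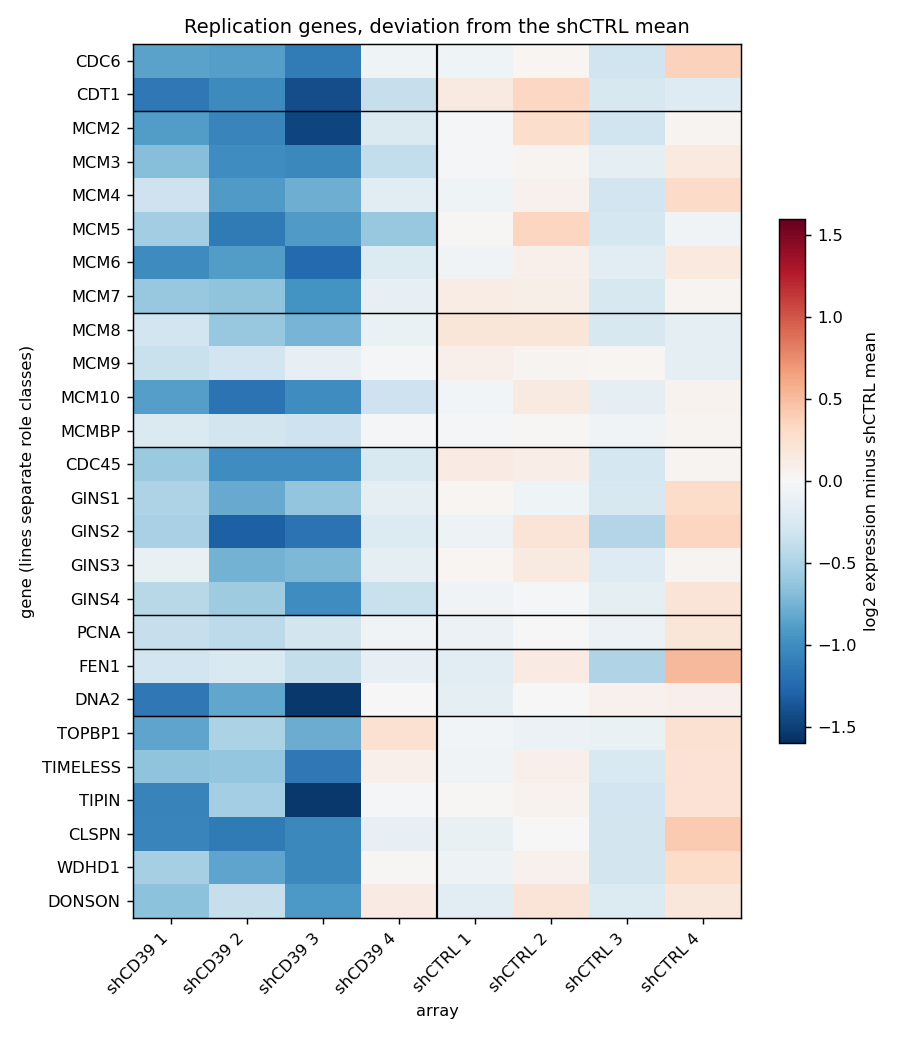
Heat map of the 26 measured replication genes (rows, grouped by role) in the 8 arrays (columns, shCD39 left of shCTRL); colour is log2 expression minus the mean of the 4 shCTRL arrays, blue for lower. The columns of shCD39 arrays 1 to 3 are below 0 in all 26 rows, while shCD39 array 4, with a median deviation of -0.14, is close in colour to the shCTRL arrays.

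All 26 measured replication genes had a lower mean in shCD39 than in shCTRL, compared with 48% of all genes, and none of them passed an adjusted p of 0.05 over all genes. The adjusted p ran from 0.0783 (MCM3 and MCM10) to 0.553 (FEN1). The median log2 fold change of the 26 genes was -0.59, which is 1.51-fold lower, against 0.01 over all genes. Of all genes, 1.75% had a log2 fold change at or under the median of the 26. Over the 8122 genes with a mean of at least 4, which include all 26, the median was -0.04. The shares over all genes given here were not matched for expression level. The range of the 26 went from -0.99 (CDT1, 1.98-fold lower) to -0.20 (MCM9, 1.15-fold lower). At an unadjusted p under 0.05, 23 of the 26 were lower, where 8.13% of all genes were. In 6 genes, CDT1, MCM3, MCM5, MCM6, MCM10 and GINS4, all 4 shCD39 values lay below all 4 shCTRL values, where this held in 4.23% of all genes. Exact permutation tests of single genes gave these 6 p = 0.0286, the lowest possible with 4 against 4 arrays. The other genes had a permutation p from 0.0571 (MCM2 among them) to 0.314 (FEN1), none under 0.05. With all arrays, 0.047% of all genes were called lower.

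Array 4 of the shCD39 group was singled out on the values of these same genes, where it was the highest of its group in 24. Leaving it out therefore lowers the shCD39 means of those genes, so the calls without it describe these arrays and are not separate support. Without shCD39 array 4, limma called 18 of the 26 genes lower, where 2.1% of all genes were called lower and 0.746% higher. All 26 again had a lower mean (47.4% of all genes), and 25 were lower at an unadjusted p under 0.05 (10.6% of all genes). The median log2 fold change was then -0.80 and the groups no longer overlapped in 23 genes, where 9.49% of all genes had groups that did not overlap in that direction. The 8 genes that were not called without that array were MCM4, MCM8, MCM9, MCMBP, GINS3, PCNA, FEN1 and DONSON. Leaving out shCTRL array 3, the lowest of the shCTRL arrays on these genes, gave 16 genes with separate groups (5.71% of all genes) and 0 calls by limma, with 23 lower at an unadjusted p under 0.05 (6.87% of all genes). With arrays weighted by their fit, 5 genes were called lower (CDT1, MCM3, MCM5, MCM6 and MCM10), where 0.585% of all genes were. Without array 4 of either group, a setting chosen after seeing the data, 11 genes were called lower (1.85% of all genes) and 24 had separate groups (13.1% of all genes).

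**Figure D2:**
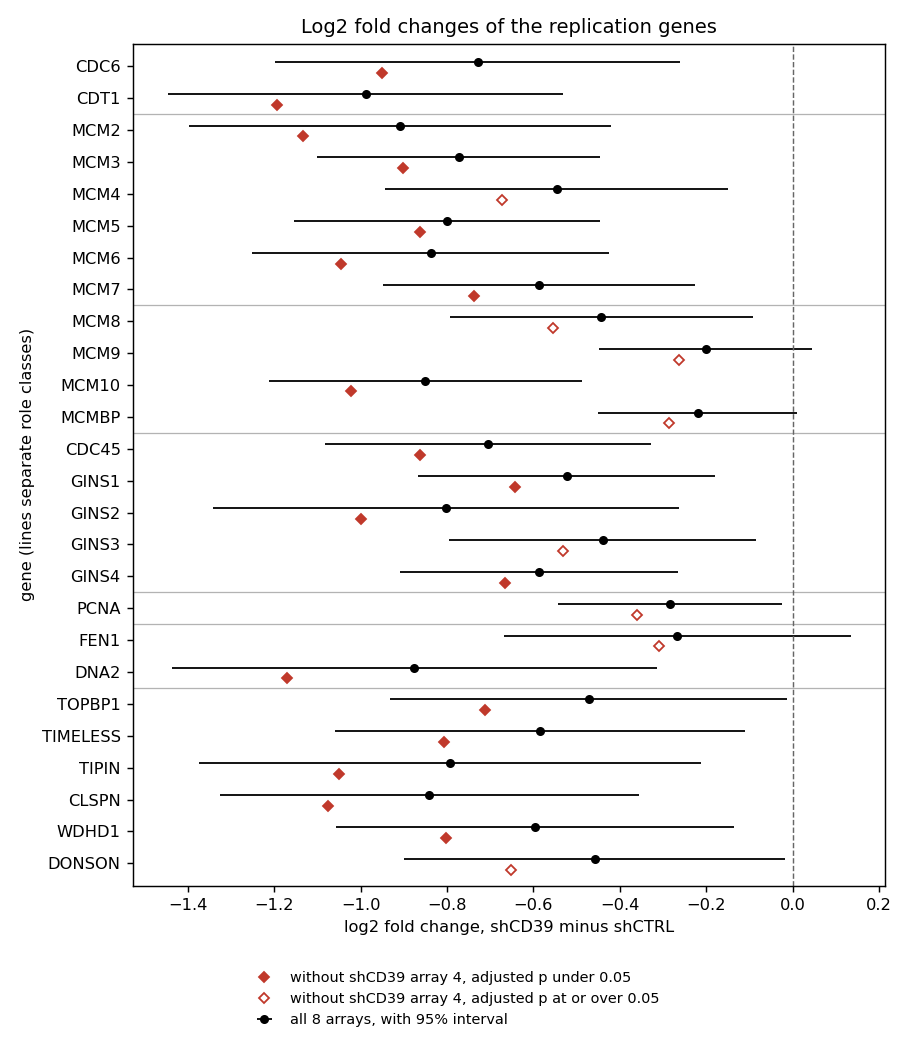
Log2 fold change (shCD39 minus shCTRL, horizontal axis) of each replication gene, grouped by role. Black points with 95% intervals are from all 8 arrays; red diamonds leave out shCD39 array 4 and are filled where the adjusted p is under 0.05. All points are below 0, the black intervals of MCM9, MCMBP and FEN1 include 0, and 18 diamonds are filled.

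The licensing factors had the lowest median of the classes with more than 1 measured gene. CDT1, which brings MCM2-7 to the origin and is destroyed once S phase begins, read 7.30, 7.42, 7.02 and 8.07 in shCD39 arrays 1 to 4, against 8.59, 8.77, 8.18 and 8.23 in shCTRL arrays 1 to 4. The groups did not overlap, although shCD39 array 4 came within the width of a replicate SD of shCTRL array 3. The log2 fold change was -0.99 (SE 0.21, adjusted p = 0.0849), or -1.19 without shCD39 array 4 (SE 0.17, adjusted p = 0.00774). CDC6, the ATPase that works with the origin recognition complex in loading, read 5.83, 5.80, 5.56 and 6.61 in shCD39, against 6.61, 6.71, 6.36 and 7.05 in shCTRL. Here shCD39 array 4 lay inside the shCTRL range, and the log2 fold change of -0.73 (SE 0.21) had an adjusted p of 0.157, or 0.0158 without that array.

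Many of these genes are known E2F targets, and their promoters were searched for 4 E2F words: TTTCCCGC, TTTCGCGC, TTTGCCGC and TTTGGCGC, on both strands. The promoters are RefSeq windows of assembly GRCh38.p14, from 250 bases before to 50 after the start site, and some genes have more than 1 window, for further start sites. Of the 26 genes, 21 had a window; MCM4, MCM5, GINS4, DNA2 and DONSON had none. A word was present in 15 of the 21 (71.4%), against 1090 of 27305 genes of the table (3.99%) and 578 of 10749 genes that were both in the table and measured (5.38%). A match is a run of letters and not evidence of binding. The licensing windows are shown first: CDC6 at chr17:40287866-40287908 (plus strand) has its match starting at base 8 of the transcript, and CDT1 at chr16:88803734-88803781 (plus strand) has it 35 bases before the start site. Sequences run 5′ to 3′ on the strand of the gene, with E2F words in capitals; a word of the other strand appears as its reverse complement.
CDC6: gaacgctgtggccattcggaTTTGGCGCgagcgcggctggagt
CDT1: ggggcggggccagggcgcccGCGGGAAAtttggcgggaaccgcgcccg

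All 6 subunits of the MCM2-7 helicase, the ring that unwinds DNA ahead of the fork, were lower in mean in shCD39; their log2 fold changes had a median of -0.79. MCM3 read 8.77, 8.46, 8.42 and 9.06 in shCD39 arrays 1 to 4, against 9.42, 9.49, 9.29 and 9.61 in shCTRL arrays 1 to 4. The groups were separate, and the log2 fold change was -0.77 (SE 0.15, adjusted p = 0.0783). MCM5, which with MCM2 forms the gate of the ring, read 7.75, 7.18, 7.41 and 7.70 in shCD39, against 8.33, 8.65, 8.03 and 8.25 in shCTRL. In MCM5, shCD39 array 4 was not the highest of its group, and all shCD39 values lay below the shCTRL values, a difference of -0.80 on the log2 scale (SE 0.16, adjusted p = 0.0805). MCM6 read 7.70, 7.82, 7.47 and 8.49 in shCD39, against 8.65, 8.79, 8.54 and 8.86 in shCTRL. Its groups were separate by the small gap between shCD39 array 4 and shCTRL array 3, and its log2 fold change was -0.84 (SE 0.19, adjusted p = 0.0939).

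MCM2, the subunit that also binds histones, averaged 7.33 ± 0.51 in shCD39 and 8.23 ± 0.25 in shCTRL, with the lowest fold change of the hexamer, -0.91 (SE 0.22, adjusted p = 0.109). MCM7 averaged 7.95 ± 0.34 in shCD39 and 8.54 ± 0.18 in shCTRL (-0.59, SE 0.17). MCM4, which belongs to the catalytic core with MCM6 and MCM7, was the subunit nearest to 0. It read 9.02, 8.45, 8.57 and 9.19 in shCD39, against 9.28, 9.42, 9.05 and 9.66 in shCTRL, so that shCD39 array 4 lay above shCTRL array 3, and the log2 fold change was -0.55 (SE 0.18, adjusted p = 0.197). The 95% intervals of the fold changes overlapped in all 15 pairs of subunits, so no order among the 6 is drawn. Without shCD39 array 4, 5 of the 6 were called lower, with MCM4 at -0.67 as the exception (adjusted p = 0.0678).

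**Figure D3:**
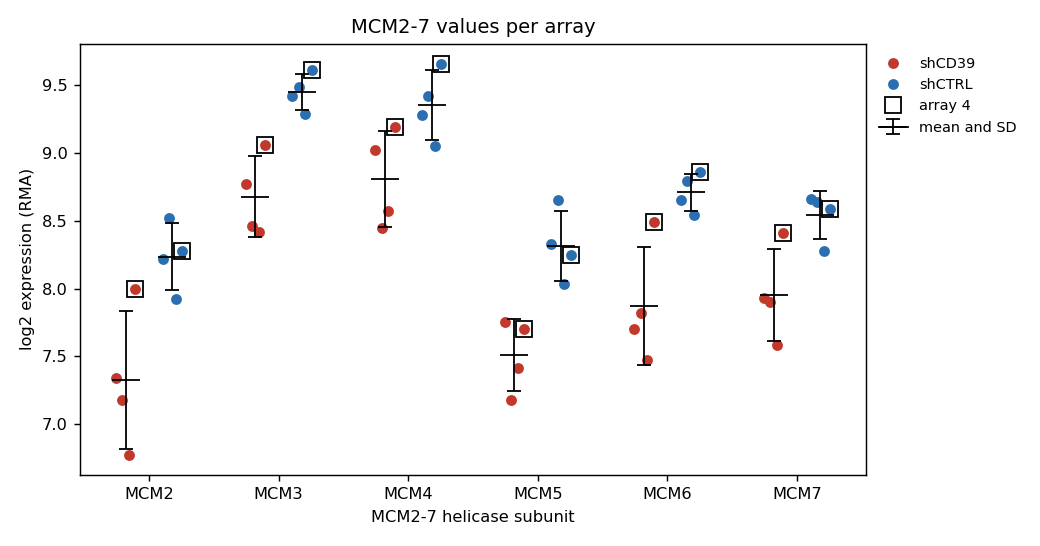
Log2 expression of the 6 subunits of the MCM2-7 helicase in each array (points, shCD39 in red left of shCTRL in blue), with group mean and SD (n = 4); squares mark array 4 of each group. In MCM3, MCM5 and MCM6 the red points all lie below the blue ones, and in MCM2, MCM4 and MCM7 the red square lies among the blue points.

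The MCM2, MCM3, MCM6 and MCM7 windows all held E2F words, and in 3 of the 4 genes 2 matches or more lay on opposite strands. MCM2 (chr3:127598393-127598440, plus strand) has 2 words that share 4 letters, the first starting at base 3 of the transcript. MCM3 is shown at chr6:52284719-52284766 (minus strand), where its nearer match begins 4 bases before the start site; its other match begins 174 bases before. MCM7 has a match 187 bases before the start site too. Its nearer match is shown at chr7:100101379-100101426 (minus strand), beginning 9 bases before the start site and overlapping a CCAAT box by a letter; of 3 annotated start sites, the other 2 had no match.
MCM2: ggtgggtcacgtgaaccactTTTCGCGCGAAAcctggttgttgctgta
MCM3: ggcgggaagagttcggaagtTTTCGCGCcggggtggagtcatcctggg
MCM7: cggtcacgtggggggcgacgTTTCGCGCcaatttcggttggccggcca

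The MCM6 window held the most, with 4 matches that form 2 copies of the same pair of words, 152 and 90 bases before the start site. The MCM9 window, of a family member with a log2 fold change of -0.20, held none. For comparison, the 250 bases before the start site are given for MCM6 (chr2:135876444-135876693, minus strand) and MCM9 (chr6:118935160-118935409, minus strand).
MCM6: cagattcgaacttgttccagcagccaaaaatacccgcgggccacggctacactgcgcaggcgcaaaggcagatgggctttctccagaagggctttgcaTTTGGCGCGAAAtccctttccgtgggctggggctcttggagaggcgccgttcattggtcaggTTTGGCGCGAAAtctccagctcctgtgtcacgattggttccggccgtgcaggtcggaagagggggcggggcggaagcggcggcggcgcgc
MCM9: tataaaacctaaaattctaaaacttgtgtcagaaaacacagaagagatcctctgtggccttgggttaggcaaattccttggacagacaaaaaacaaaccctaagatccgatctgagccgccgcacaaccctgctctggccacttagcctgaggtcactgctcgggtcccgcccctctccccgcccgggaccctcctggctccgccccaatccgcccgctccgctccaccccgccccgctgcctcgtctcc

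The other MCM proteins differed among themselves. MCM10, which activates the assembled helicase and is no part of the ring, read 7.28, 6.99, 7.17 and 7.83 in shCD39 arrays 1 to 4, against 8.12, 8.31, 8.02 and 8.22 in shCTRL arrays 1 to 4. The groups were separate, by -0.85 on the log2 scale (SE 0.17, adjusted p = 0.0783), within the range of the hexamer. MCM8, which forms a complex with MCM9 in recombination repair, read 8.38, 8.08, 7.95 and 8.58 in shCD39, against 8.88, 8.89, 8.44 and 8.55 in shCTRL. In MCM8, shCD39 array 4 read above shCTRL arrays 3 and 4, and the log2 fold change was -0.44 (SE 0.16, adjusted p = 0.228). MCM9 read 6.04, 6.09, 6.26 and 6.37 in shCD39, against 6.47, 6.44, 6.42 and 6.24 in shCTRL. Its lowest shCTRL value, in array 4, lay below shCD39 arrays 3 and 4, and its interval of -0.45 to 0.05 included 0. MCMBP, which binds MCM proteins off chromatin, read 8.82, 8.76, 8.73 and 9.03 in shCD39, against 9.04, 9.08, 9.0 and 9.10 in shCTRL. Its shCTRL values were the closest together of any measured replication gene (SD 0.05), and its log2 fold change was -0.22 (SE 0.11, adjusted p = 0.364). Without shCD39 array 4, MCM10 was the member of this class that was called lower (-1.02, SE 0.12, adjusted p = 0.00475).

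CDC45 and the 4 GINS subunits, which turn the loaded ring into the moving helicase, were lower in mean in 5 of 5 genes, with a median of -0.59. CDC45 read 6.45, 6.05, 6.06 and 6.81 in shCD39 arrays 1 to 4, against 7.18, 7.15, 6.77 and 7.09 in shCTRL arrays 1 to 4. Only the pair of shCD39 array 4 and shCTRL array 3 overlapped in CDC45, and its log2 fold change was -0.71 (SE 0.17, adjusted p = 0.109). GINS4 read 6.05, 5.92, 5.50 and 6.13 in shCD39, against 6.43, 6.47, 6.35 and 6.70 in shCTRL, with separate groups that differed by -0.59 (SE 0.15, adjusted p = 0.113). GINS1 read 6.15, 5.84, 6.02 and 6.49 in shCD39, against 6.68, 6.58, 6.39 and 6.94 in shCTRL (-0.52, SE 0.16, adjusted p = 0.164). GINS2 averaged 5.31 ± 0.53 in shCD39 and 6.11 ± 0.36 in shCTRL, with the lowest fold change of the class, -0.80, and the largest SE, 0.25. GINS3, the subunit nearest to 0, read 6.68, 6.05, 6.08 and 6.64 in shCD39, against 6.83, 6.94, 6.59 and 6.84 in shCTRL, and there shCD39 arrays 1 and 4 both lay above shCTRL array 3 (-0.44, SE 0.16, adjusted p = 0.236). Without shCD39 array 4, CDC45 and 3 GINS genes were called lower, and GINS3 was not (adjusted p = 0.111).

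The 3 GINS genes with a promoter window each held an E2F word near the start site. The word begins at base 6 of the transcript in GINS1 (chr20:25407658-25407702, plus strand), 31 bases before the start site in GINS2 (chr16:85688958-85689005, minus strand) and 5 bases before it in GINS3 (chr16:58392446-58392493, plus strand). The CDC45 windows, for 3 start sites, held none.
GINS1: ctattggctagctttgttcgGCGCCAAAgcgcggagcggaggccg
GINS2: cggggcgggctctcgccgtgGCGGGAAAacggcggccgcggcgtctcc
GINS3: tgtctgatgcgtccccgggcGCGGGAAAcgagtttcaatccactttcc

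Of the clamp and clamp loader, PCNA alone was measured. PCNA, the ring that tethers polymerases and many repair proteins to DNA, read 8.49, 8.44, 8.56 and 8.80 in shCD39 arrays 1 to 4, against 8.76, 8.86, 8.76 and 9.05 in shCTRL arrays 1 to 4. With shCD39 array 4 inside the shCTRL range, the log2 fold change was -0.28 (SE 0.12, adjusted p = 0.296), 1.22-fold lower. In lagging strand processing, the nuclease and helicase DNA2, which trims long flaps of Okazaki fragments and resects broken ends, read 6.0, 6.31, 5.60 and 7.15 in shCD39, against 7.0, 7.14, 7.21 and 7.22 in shCTRL. The shCD39 arrays of DNA2 had an SD of 0.66, against 0.10 in shCTRL, and an SD of 0.36 without shCD39 array 4, and its log2 fold change was -0.88 (SE 0.26, adjusted p = 0.157), or -1.17 without shCD39 array 4 (SE 0.16, adjusted p = 0.00774). FEN1, the nuclease that removes short flaps, read 6.53, 6.59, 6.46 and 6.70 in shCD39, against 6.66, 6.97, 6.35 and 7.36 in shCTRL. In FEN1 the spread was in the shCTRL arrays (SD 0.43, against 0.10 in shCD39). The log2 fold change was -0.27 (SE 0.18, adjusted p = 0.553), and it moved to -0.09 without shCTRL array 4 and to -0.43 without shCTRL array 3.

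The 6 genes of fork protection and origin firing were all lower in mean in shCD39 (median log2 fold change -0.59), and in none of them were the groups separate. Claspin (CLSPN), which links the fork to the checkpoint kinase CHK1, read 6.38, 6.31, 6.41 and 7.31 in shCD39 arrays 1 to 4, against 7.32, 7.43, 7.15 and 7.86 in shCTRL arrays 1 to 4. Its first 3 shCD39 values were nearly equal, and shCD39 array 4 lay inside the shCTRL range. The log2 fold change of CLSPN was -0.84 (SE 0.22, adjusted p = 0.126), or -1.08 without that array (SE 0.16, adjusted p = 0.00913).

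TIPIN and TIMELESS form the complex that travels with the fork and stabilises it when it stalls. TIPIN read 5.18, 5.71, 4.71 and 6.22 in shCD39, against 6.27, 6.31, 5.94 and 6.48 in shCTRL, and its log2 fold change was -0.79 (SE 0.27, adjusted p = 0.200). TIMELESS averaged 6.99 ± 0.51 in shCD39 and 7.57 ± 0.20 in shCTRL (-0.58, SE 0.22, adjusted p = 0.239). In both partners the lowest value was that of shCD39 array 3. WDHD1, which couples the helicase to polymerase alpha, read 7.11, 6.79, 6.6 and 7.66 in shCD39, against 7.56, 7.71, 7.34 and 7.93 in shCTRL (-0.60, SE 0.21, adjusted p = 0.219). TOPBP1, which recruits CDC45 to origins and activates the kinase ATR, averaged 7.47 ± 0.50 in shCD39 and 7.94 ± 0.16 in shCTRL. Its log2 fold change of -0.47 (SE 0.21, adjusted p = 0.327) moved to -0.71 without shCD39 array 4 (SE 0.13, adjusted p = 0.0228). DONSON, a factor of helicase assembly and fork stability, was the member of the class nearest to 0 and read 5.97, 6.25, 5.70 and 6.75 in shCD39, against 6.46, 6.83, 6.40 and 6.80 in shCTRL. There the log2 fold change was -0.46 (SE 0.20, adjusted p = 0.321), or -0.30 without shCD39 array 3. Without shCD39 array 4, the other 5 genes of the class were called lower and DONSON was not (adjusted p = 0.0601).

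E2F words were found in 3 of the 5 fork genes with a window. They lie 5 bases before the start site in CLSPN (chr1:35769956-35770003, minus strand), 7 bases before it in TOPBP1 (chr3:133661921-133661968, minus strand) and 66 bases before it in TIPIN (chr15:66356720-66356771, minus strand, 1 of 2 start sites), where 2 words of opposite strands share 4 letters. PCNA, shown beside them, has a word 59 bases before the start site at 1 of its 2 start sites (chr20:5126654-5126701, minus strand).
CLSPN: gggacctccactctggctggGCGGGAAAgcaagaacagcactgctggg
TOPBP1: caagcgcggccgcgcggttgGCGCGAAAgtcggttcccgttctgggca
TIPIN: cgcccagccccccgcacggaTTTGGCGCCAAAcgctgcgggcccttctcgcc
PCNA: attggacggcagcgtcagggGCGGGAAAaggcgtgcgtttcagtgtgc

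The genes with and without a word were set side by side by size of change, and the difference was not tested. The 15 genes with a match had a median log2 fold change of -0.73 and ranged from -0.99 (CDT1) to -0.22 (MCMBP). The 6 without a match, MCM9, MCM10, CDC45, FEN1, TIMELESS and WDHD1, had a median of -0.59 and ranged from -0.85 (MCM10) to -0.20 (MCM9), so the ranges overlapped almost fully. The CCAAT box, a common promoter element bound by NF-Y, was found on either strand in 14 of the 21 genes, against 39.7% of the genes of the table. The word TTTGAA, the cell cycle homology element of genes expressed in G2 and mitosis, was found on either strand in 0 of the 21, against 18.2% of the genes of the table. Base composition of the windows was not matched in these shares.

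The classes were set side by side by array. In shCD39 arrays 1 to 4 the median deviation from the shCTRL mean was -0.64, -0.95, -1.0 and -0.23 for MCM2-7, -0.50, -0.81, -0.99 and -0.21 for CDC45 and GINS, and -0.75, -0.58, -1.03 and 0.05 for fork protection and firing. In shCD39 array 4 the median was thus negative in the first 2 of these classes and positive in the fork genes. In that array it was -0.22 for licensing and -0.06 each for the other MCM proteins, PCNA and lagging strand processing. In shCTRL arrays 1 to 4 the same medians were -0.02, 0.09, -0.27 and 0.10 for MCM2-7, 0.03, 0.10, -0.26 and 0.21 for CDC45 and GINS, and -0.06, 0.07, -0.27 and 0.23 for the fork genes. For MCM2-7 and for CDC45 and GINS, shCTRL array 3 thus lay below shCD39 array 4. Differences between classes were not tested. With all arrays, the SD over 4 arrays had a median of 0.36 in shCD39 and 0.21 in shCTRL over the 26 genes, and 0.19 and 0.15 over all genes. It was larger in shCD39 in 25 of the 26 genes, FEN1 being the exception, and in 62.7% of all genes. With shCD39 array 4 left out it was larger in shCD39 in 18 of the 26 genes and in 56.2% of all genes, and its median in shCD39 over the 26 genes was 0.21.

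Other genes of replication, in 6 lists of 64 genes with 43 measured, had lower means in shCD39 in 38 cases and higher means in 5. Of all genes, 48% had lower means. In the fit over all genes, limma called 0 of the 43 lower and 1 higher (0.047% of all genes were called in either direction), and their median log2 fold change was -0.36. Without shCD39 array 4, 40 had lower means and 3 higher, where 47.4% of all genes had lower means. In that setting 14 were called lower and 1 higher, where 2.1% and 0.746% of all genes were. Among genes of origin firing and its control, DTL, which targets CDT1 for destruction, had -0.80 (SE 0.19), CDK2 -0.43 (SE 0.15) and the origin kinase CDC7 -0.68 (SE 0.24). Among factors that act on the clamp or at cohesion, PCLAF, a partner of PCNA, had -0.85, DSCC1 -0.78 and ESCO2 -0.78. TOP3A had -0.44, TOP2A -0.51 and TOP1 -0.13.

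Of the genes that restore chromatin behind the fork, the maintenance methyltransferase DNMT1 read 8.80, 8.83, 8.65 and 9.20 in shCD39 arrays, against 9.53, 9.58, 9.50 and 9.47 in shCTRL arrays. Its groups were separate and differed by -0.65 on the log2 scale (SE 0.13, adjusted p = 0.0783). The histone chaperones ASF1B and NASP had -0.66 (SE 0.13) and -0.53 (SE 0.15). The checkpoint kinase CHEK1 had -0.87 (SE 0.21, groups separate), and HLTF and RAD1 had -0.31 and -0.24. In the supply of deoxynucleotides the 2 alternative small subunits of ribonucleotide reductase had opposite signs. RRM2B, the p53-inducible subunit, rose, reading 6.81, 6.90, 6.99 and 6.70 in shCD39, against 5.92, 5.92, 6.01 and 5.78 in shCTRL (1.92-fold, adjusted p = 0.00993). Without shCTRL array 1 the RRM2B difference was 0.94 on the log2 scale and no longer passed the threshold (adjusted p = 0.0656). RRM2, the subunit of cycling cells, read 7.08, 6.96, 6.50 and 7.26 in shCD39, against 7.49, 7.72, 7.41 and 7.59 in shCTRL (-0.60, SE 0.16, adjusted p = 0.12), and DTYMK had -0.37. In RRM2B, shCD39 array 4 lay with its own group, above all shCTRL values.

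**Figure D4:**
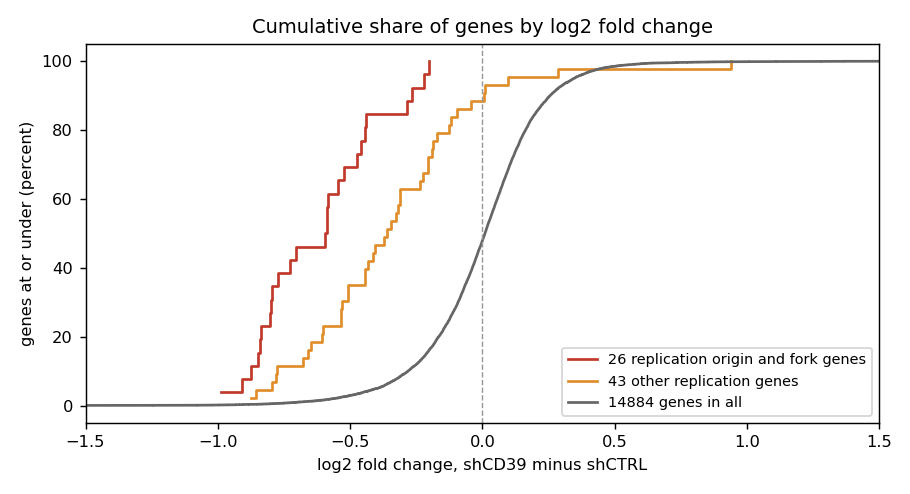
Cumulative share of genes (vertical axis, percent) at or under each log2 fold change (horizontal axis, shCD39 minus shCTRL) for the 26 replication origin and fork genes, the 43 other replication genes and all 14884 genes. The curve of the 26 genes reaches its end at -0.20, left of 0, while the curve of all genes crosses 0 at 48%.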

How the data were processed

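Total RNA (100 ng per sample, per the labels' protocols) was prepared for Affymetrix arrays with a WT PLUS kit. The deposited log2 values per probe set were made by the authors with RMA in the oligo package, per the submitters' processing notes; their versions, the model of array and its build were not given here. The table held 53617 probe sets on 8 arrays. A platform annotation, checked through Entrez IDs against RefSeq (GRCh38.p14, used for names and promoters), named 16098 of them, each with 1 symbol; 37519 are unnamed here. Where a gene had several, the brightest by mean level stood for it, giving 14884 genes. No filter on dim genes was applied, so all 26 measured members were tested.

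Groups were compared with limma 3.58.1 in R 4.3.3 (lmFit, eBayes), 2-sided, with Benjamini-Hochberg adjustment over all genes and a threshold of 0.05. Array number limits the precision. Exact permutation tests of single genes cannot go below 0.0286 with 4 against 4 arrays and served as a check. The procedure was tested on simulated data with independent noise per gene and array, without shifts that many genes of an array share. Over all genes, same-numbered arrays of the groups did not deviate together (correlations of -0.04 to 0.06). The labels do not pair them either, and they were not paired. In the 26 measured members, array 3 had the lowest and array 4 the highest median deviation in both groups. Alternatives were quantile and cyclic loess normalisation, a minimum mean of 4, the mean of all probe sets, weights per array, an intensity trend with a robust prior, a block for replicate number and the omission of each array. Omission of array 4 from both groups was chosen after seeing the data. Omission of shCD39 array 4 alone was planned with that of every other array, but it is reported throughout because of its values in these genes. Members, role classes and other lists were chosen with earlier results of these data known. Values per array are given for up to 3 members per class with the smallest p and for the member nearest to no change, and fold changes for the others. In other lists the genes past the threshold, or up to 3 with the smallest p, are named. RRM2B is given per array, as are RRM2 and DNMT1, chosen for this after their values were seen. CLSPN and GINS4 each had a second, dim probe set that was not used. Plots used Python 3.11.15 and matplotlib 3.10.9.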

Additional observations from a re-analysis of the deposited data

Results flagged for a closer look

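Among 52 sets of 4 values (26 genes in each group), 1 held a value far from the others by Dixon's criterion, which marks about 1 set in 20 by chance. CLSPN read 7.31 in shCD39 array 4, against 6.31 to 6.41 in the other shCD39 arrays.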

How the results depend on the processing

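All 26 genes kept a lower mean in shCD39 under each of the 17 settings run, and 0 were called higher. The median log2 fold change ran from -0.80 (without shCD39 array 4) to -0.48 (without shCD39 array 3), with -0.52 under quantile and -0.53 under cyclic loess normalisation. The number called lower, 0 with all arrays, was 5 with array weights and 11 without both arrays numbered 4, and ran from 0 to 18 when single arrays were left out; it was 18 without shCD39 array 4 and 0 otherwise. With genes of mean 4 or more, the lowest adjusted p of the 26 was 0.0501. Genes with separate groups, 6 with all arrays, numbered 6 to 23 when single arrays were left out and 24 without both arrays numbered 4. Calls among other replication genes, 1 with all arrays, numbered 3 with array weights, 2 with genes of mean 4 or more, 8 without both arrays numbered 4, and 0 (without shCTRL array 1, where the RRM2B call was lost) to 15 (without shCD39 array 4) when single arrays were left out. Over all genes, 14 were called (50% lower), and 124 with array weights (70.2% lower), 44 with genes of mean 4 or more, 22 with an intensity trend, 5 with quantile normalisation (0 lower), 10 with cyclic loess (30% lower) and 368 without both arrays numbered 4 (75% lower). Leaving out single arrays gave 0 to 423: 0 without shCTRL array 1, where 1574 genes had an unadjusted p under 0.05, 48 without shCTRL array 4 and 423 without shCD39 array 4. With the replicate block, limma called 6 genes over all genes, all higher, and 0 of the 26 (lowest adjusted p = 0.0851). In deviations over all genes, 2 of the 8 arrays correlated best with their own number, and the labels do not pair them.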
